A study of Mus musculus with 12 samples.

Results

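The 35 genes described here are cyclins, cyclin-dependent kinases, E2F factors, replication licensing factors, DNA synthesis enzymes and mitotic regulators, measured in mouse peritoneal macrophages. Members were found through the RefSeq transcript of each array probe, which gave 47 probes for the 35 genes among 55681 probes on the array. In the first group, macrophages received IL4 at 10 ng/ml together with emodin, a plant anthraquinone, at 50 µM (IL4 plus emodin, 4 arrays). The second group received IL4 at 10 ng/ml alone (IL4, 4 arrays), and the third received vehicle (control, 4 arrays). All cells came from wild-type C57BL/6 mice aged 8 weeks, were selected by adherence and were kept overnight in medium without serum before treatment. The array descriptions give a treatment of 6 h whereas the treatment protocol describes an overnight one, and the series' design text names blood leukocytes rather than peritoneal macrophages. The labels do not say whether 1 animal gave cells to several arrays, so p-values measure only the spread between these arrays. No group received emodin without IL4.

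Passage through the cell cycle begins with D-type cyclins, whose kinases CDK4 and CDK6 phosphorylate the retinoblastoma protein and so release E2F transcription factors, and continues with cyclin E and CDK2. Cdc6 and Cdt1 load the Mcm2 to Mcm7 helicase onto origins, geminin holds Cdt1 back, and cyclin B with CDK1 drives mitosis. Mature macrophages divide rarely in culture, and IL4 is known in mice to promote division of tissue macrophages in vivo.

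Values are log2 levels with the 75th percentile of their own array set to 0, and a difference is a subtraction of 2 group means, given with its standard error. A gene was called when its adjusted p in limma fell below 0.05 over 20862 genes tested. Of the 35 members, 33 passed the filter for probes well above background on every array of at least 1 group. Ccne2, a cyclin E, was not well above background on any array, and Aurkb, a kinase of chromosome segregation, was so on 1 of 12 arrays, IL4 replicate 3, at -2.77. Between 30 and 33 members were well above background per array.

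Of 9 macrophage markers looked up, 8 were matched on the array, and all 8 were well above background on all arrays. With emodin against IL4, 3 of the 8 were called lower, Icam2 (-1.59 ± 0.11), Csf1r (-0.55 ± 0.12) and Mertk (-0.57 ± 0.18). Adgre1 and Lyz2 were called higher (0.18 ± 0.08 and 0.32 ± 0.10, but -0.90 and -0.76 when scaled on spike-in probes). Emodin arrays were dimmer: their 75th percentile of intensity was 447 to 516, against 761 to 813 in IL4 and 633 to 810 in control, while their spike-in probes averaged 11.1 to 11.3 on the log2 scale, against 10.5 to 11.0 in both other groups. Scaling on those spike-in probes therefore moved the median difference of all genes by -1.09 (IL4 plus emodin against IL4) and -0.96 (IL4 plus emodin against control), so that rises in emodin arrays depend on the scale and each is given below with its spike-in value. For IL4 against control the spike-in shift was 0.13, and quantile scaling moved both emodin comparisons by -0.14. The 4 emodin arrays shared 1 slide and the 8 other arrays a second one, which means that effects of slide and of emodin cannot be told apart. Of the B cell markers, Cd79b and Ms4a1 were lower on emodin arrays than on IL4 arrays (-2.16 ± 0.25 and -2.19 ± 0.48) and than on control arrays (-2.03 ± 0.25 and -2.10 ± 0.48), with Ms4a1 well above background on 1 of 4 emodin arrays; Cd79a was so on no emodin array and Pax5 on none of the 12. Summed levels of 3 neutrophil markers were 36.2 to 58.5 on emodin arrays, against 18.8 to 29.8 in IL4 and 25.7 to 39.1 in control. Of these 3, Elane was higher than in IL4 (1.26 ± 0.24; spike-in 0.17, not called), S100a8 was not called against IL4 and was lower than in control (-0.74 ± 0.19), and S100a9 was called in neither. Of 5 tested mast cell markers, Kit was the 1 called against IL4, where it was higher with emodin (1.92 ± 0.14, spike-in 0.84, called). Of 2 tested T and NK cell markers, Cd3e was higher with emodin than with IL4 (1.03 ± 0.25, spike-in -0.05, not called), with overlapping arrays. Cd4 was not called there, and neither was called against control. In IL4 against control, 1 of these 2 markers was called lower. The part of these cells in the results below was not tested. In bulk RNA, fewer cells of a type and less RNA per cell cannot be told apart. Replicates 1 and 2 of each group are labelled female and 3 and 4 male, yet both Xist probes were well above background on all 6 arrays labelled male, and no probe of Ddx3y, Eif2s3y, Kdm5d or Uty was so on any of the 12 arrays; the sexes are therefore given only as labels.

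Promoters are shown for the members with 1 promoter entry that fell or rose the most with emodin against IL4 by the fitted difference. This sets the sequences of both kinds side by side. RefSeq promoters (build GRCm38.p6) were found for 28 of the 35 members. Of these, 20 (71.4%) held CCAAT in the 250 bases before the start, against 37.5% of all 27025 genes with a promoter. A further motif, the cell cycle homology region TTTGAA, was in 7 (25.0%), against 18.3% of all, and an E2F motif, TTGGCGC or TTCCCGC, in 9 (32.1%), against 6.45% of all. All motifs were searched on both strands, none holds another although TTGGCGC can share TTGG with the reverse of CCAAT, and a match is a description of letters, not a bound site. The 150 bases before the start follow, 5′ to 3′ on the strand of the gene, with every match to these 4 motifs in capitals, first for 3 genes that were lower with emodin than with IL4 alone and then for 3 that were higher on the 75th percentile scale (Cdt1 was at -0.05 with spike-in scaling).
Cdk2 (chr10:128705052-128705201, minus strand): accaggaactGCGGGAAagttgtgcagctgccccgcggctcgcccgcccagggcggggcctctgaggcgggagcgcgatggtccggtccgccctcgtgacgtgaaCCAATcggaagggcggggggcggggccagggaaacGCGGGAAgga
Aurka (chr2:172370571-172370720, minus strand): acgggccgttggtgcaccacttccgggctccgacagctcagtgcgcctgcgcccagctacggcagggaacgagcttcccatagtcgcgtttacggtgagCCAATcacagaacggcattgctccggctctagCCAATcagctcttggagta
Mcm5 (chr8:75109359-75109508, plus strand): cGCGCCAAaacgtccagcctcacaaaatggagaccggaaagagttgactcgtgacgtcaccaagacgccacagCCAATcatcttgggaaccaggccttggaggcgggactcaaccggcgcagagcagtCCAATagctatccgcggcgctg
Cdc6 (chr11:98908001-98908150, plus strand): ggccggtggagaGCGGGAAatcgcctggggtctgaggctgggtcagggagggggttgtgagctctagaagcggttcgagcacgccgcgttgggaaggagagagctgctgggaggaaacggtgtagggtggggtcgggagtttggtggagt
Top2a (chr11:99024190-99024339, minus strand): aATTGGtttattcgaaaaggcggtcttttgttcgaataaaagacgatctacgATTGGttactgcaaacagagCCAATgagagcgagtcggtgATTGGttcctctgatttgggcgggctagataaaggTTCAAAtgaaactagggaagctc
Cdt1 (chr8:122567865-122568014, plus strand): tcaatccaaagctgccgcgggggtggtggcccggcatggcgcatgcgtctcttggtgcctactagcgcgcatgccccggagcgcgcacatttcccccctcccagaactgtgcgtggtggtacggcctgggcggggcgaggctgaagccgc
E2F letters stood in the windows of Cdk2 and Mcm5, which fell, and of Cdc6, which was called higher on this scale. Cdc6 was well above background on 0 of 4 IL4 arrays and 1 of 4 emodin arrays, so its rank among the rises rests on dim values. Top2a held CCAAT on either strand at 4 places and the cell cycle homology letters beginning 23 bases before the start, and Cdt1 held none of these letters in its window.

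Adding emodin to IL4 was accompanied by lower levels of Cdk2, E2f2, Aurka, Mcm5 and cyclin D1 and, on the 75th percentile scale, by higher levels of Top2a, Cdt1, Cdk6 and Mki67, of which Cdt1, Cdk6 and Mki67 turn below 0 with spike-in scaling. Of 33 members, 23 were called (69.7%, beside 65.9% of all genes), 14 lower (42.4%, beside 26.5%) and 9 higher (27.3%, beside 39.4%). The share called was thus near that of all genes, with more of it on the lower side. The 2 groups' arrays did not overlap for 20 members (60.6%, beside 60.4% of all genes), and 8 members were called at 2-fold or more by the fitted value (24.2%, beside 18.3%), 7 without Cdc6, which was not above background on any IL4 array. The median difference of the members was -0.22, beside 0.17 for all genes, and 20 of 33 members lay below the median gene. Spike-in scaling lowers every gene alike, so it could not turn a fall. Under the other scalings tried all 14 falls kept their sign, and Ccnd2 was not called with normexp (-0.026, adjusted p = 0.870). With spike-in scaling limma called 27 members lower (81.8%, beside 80.7% of all genes) and 0 higher (beside 3.46%), and 0 were higher at an unadjusted p below 0.05.

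Against control, emodin-treated cells had lower E2f2, Cdk2, geminin, Aurka and cyclin D1 and, on the 75th percentile scale, higher Mki67, Mcm2 and Top2a, whose spike-in differences were above 0 but not called. Here 20 members were called (60.6%, beside 62.9% of all genes), 13 lower (39.4%, beside 25.6%) and 7 higher (21.2%, beside 37.3%). Arrays did not overlap for 20 members (60.6%, beside 54.3%), and 9 were called at 2-fold or more (27.3%, beside 16.7%). The members' median was -0.29, beside 0.15 for all genes. This comparison shares its emodin arrays with the one against IL4, so the 2 sets of calls are not independent. In both, 11 members were lower and 7 higher. The share of all genes called the same way in both was not counted, so these counts say nothing particular to the members. Limma with spike-in scaling again called 27 lower (81.8%, beside 75.6% of all genes) and 0 higher (beside 4.12%), with 0 higher at an unadjusted p below 0.05.

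IL4 alone changed few members: Mcm2 was higher, and Cdc6, E2f2, geminin, cyclin D3 and Pcna were lower than in control. The 6 calls were 18.2% of members, beside 17.5% of all genes; 1 was higher (3.03%, beside 8.98%) and 5 lower (15.2%, beside 8.56%). Arrays did not overlap for 7 members (21.2%, beside 24.9%), Cdc6 was the 1 member called past 2-fold by the fitted value (3.03%, beside 3.95%), where its IL4 level was not above background and the bound is 1.84-fold, and the median difference was -0.05, beside -0.03. Replicate numbers pair the arrays in this comparison, and with the number as a block limma also called Ccnb1 (0.36, adjusted p = 0.00984) and Mki67 (0.50, adjusted p = 0.00558) higher and Bub1 (-0.60, adjusted p = 0.00443) lower. E2f2 and Pcna lost their call without IL4 replicate 1 (adjusted p = 0.0677 and 0.0671) or IL4 replicate 2 (0.0604 and 0.0580), which left 3 members lower.

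**Figure D1:**
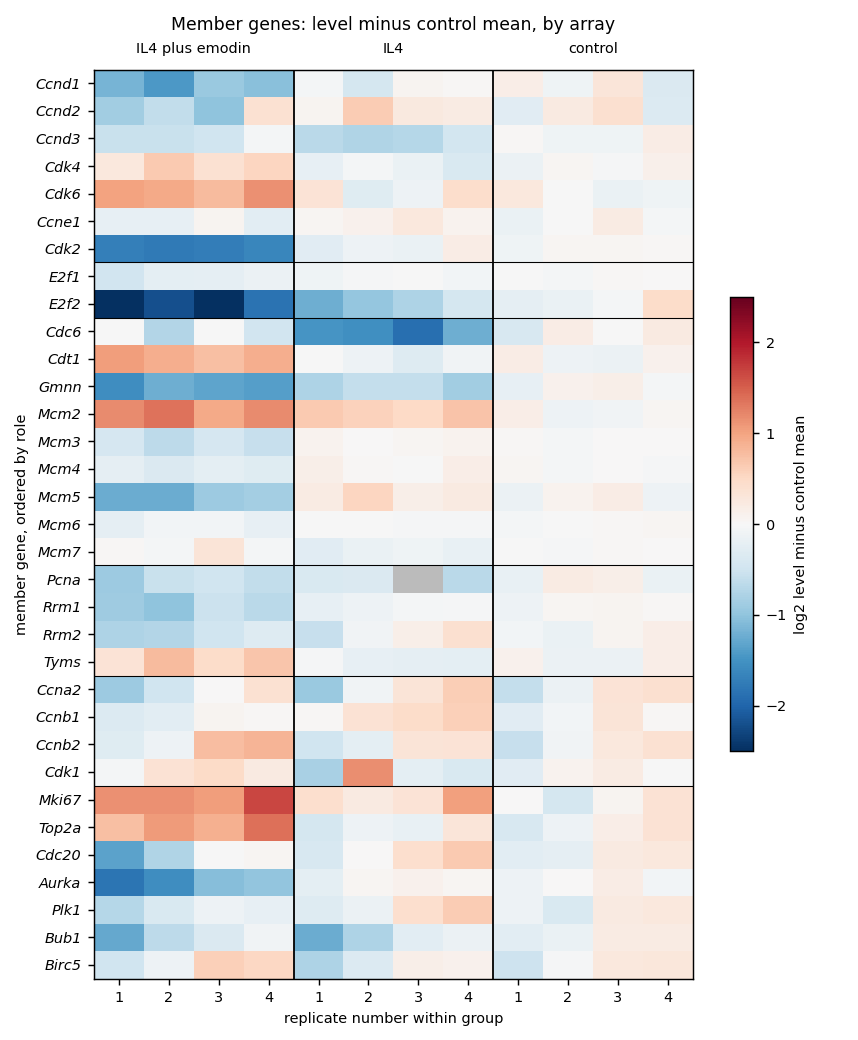
Colour gives the log2 level of each of 33 tested members (rows, ordered by role with lines between roles) on each array (columns, numbered by replicate) minus the control mean of that gene; grey marks the Pcna spot left out on IL4 replicate 3. Cdk2, E2f2, Aurka, Mcm5 and Gmnn are blue on all 4 emodin arrays, Mcm2 and Mki67 are red there (with spike-in scaling their differences from control were 0.20 and 0.29, not called), and Cdc6 is blue on all 4 IL4 arrays.

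Among the G1 cyclins and kinases, 4 of 7 tested members were lower and 2 higher with emodin than with IL4. Cdk2, the kinase partner of cyclins E and A, stood at -1.76, -1.83, -1.78 and -1.69 on the emodin arrays, against -0.34, -0.18, -0.22 and 0.14 on the IL4 arrays and -0.16, 0.00, -0.01 and -0.03 on the control arrays. The emodin arrays lay below all others, and the IL4 and control arrays overlapped. The difference from IL4 was -1.61 ± 0.10 (3.06-fold lower, adjusted p = 6.32e-08) and that from control -1.71 ± 0.10 (adjusted p = 4.07e-08). Ccnd1, the cyclin D1 gene, gave -1.93, -2.20, -1.69 and -1.82 with emodin, against -0.82, -1.22, -0.70 and -0.75 with IL4 and -0.60, -0.88, -0.48 and -1.15 in control. Again every emodin array was below every other, with differences of -1.04 ± 0.17 from IL4 (2.05-fold lower) and -1.14 ± 0.17 from control.

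The genes of the other D cyclins, which partner the same kinases, were Ccnd2 and Ccnd3. Ccnd2 was lower with emodin than with IL4 (-0.82 ± 0.28, adjusted p = 0.0223), but its arrays overlapped, 2 of 4 emodin arrays were well above background, and the call was lost without emodin replicate 1 (adjusted p = 0.0621), emodin replicate 3 (0.0665) or IL4 replicate 2 (0.0642). Ccnd3 averaged 2.71 ± 0.25 in IL4 plus emodin, 2.48 ± 0.13 in IL4 and 3.13 ± 0.14 in control (SD, n = 4 each). It was lower than in control in both IL4 plus emodin (-0.42 ± 0.12, adjusted p = 0.0114) and IL4 alone (-0.65 ± 0.12, adjusted p = 0.00320), the second no longer called with spike-in scaling (-0.52, adjusted p = 0.0922). Cdk4 was higher with emodin than with IL4 (0.66 ± 0.10, adjusted p = 0.000156; spike-in -0.43), and its 3 probes gave 0.45 to 0.66. Cdk6 was likewise higher than in IL4 (0.88 ± 0.16; spike-in -0.21) and in control (0.97 ± 0.16; spike-in 0.01, not called). For both kinases all emodin arrays lay above all others on the 75th percentile scale. Ccne1, the cyclin E1 gene, was lower than in IL4 by a small amount (-0.28 ± 0.10, adjusted p = 0.0255); its second probe gave 0.00, and the call was lost without any 1 of the 4 emodin arrays except replicate 3, or without IL4 replicate 3 (adjusted p between 0.0566 and 0.0768).

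Both E2F factors, which activate genes of S phase, were lower with emodin. E2f2 stood at -1.79, -1.47, -2.09 and -1.11 with emodin, against -0.48, -0.24, -0.03 and 0.29 with IL4 and 0.51, 0.56, 0.68 and 1.19 in control. The 3 groups did not overlap, with emodin lowest and control highest. Differences were -1.50 ± 0.23 from IL4 (2.83-fold lower, adjusted p = 0.000113), -2.35 ± 0.23 from control (5.11-fold lower, adjusted p = 3.14e-06) and, for IL4 against control, -0.85 ± 0.23 (adjusted p = 0.0225). The last was not called with spike-in scaling (-0.73, adjusted p = 0.116) nor without control replicate 4 (adjusted p = 0.0658), IL4 replicate 1 or IL4 replicate 2 (0.0677 and 0.0604). E2f1 differed by -0.22 ± 0.08 from IL4 and -0.28 ± 0.08 from control, with no overlap of arrays; the call against IL4 was lost without emodin replicate 1 (-0.16, adjusted p = 0.0562), IL4 replicate 2 (0.0502) or IL4 replicate 3 (0.0567).

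The licensing factors split. Geminin (Gmnn), the inhibitor of Cdt1, stood at 0.04, 0.37, 0.29 and 0.22 with emodin, against 0.83, 1.00, 0.99 and 0.73 with IL4 and 1.40, 1.70, 1.75 and 1.55 in control. The 3 groups again did not overlap and were ordered as for E2f2. Differences were -0.66 ± 0.10 from IL4, -1.37 ± 0.10 from control (2.58-fold lower, adjusted p = 4.28e-07) and -0.71 ± 0.10 for IL4 against control (adjusted p = 0.000520). Cdt1, the loader that geminin holds back, was 5.41, 5.27, 5.11 and 5.27 with emodin, against 4.36, 4.24, 4.05 and 4.27 with IL4 and 4.54, 4.23, 4.22 and 4.47 in control. Its emodin arrays were above all others on this scale (1.03 ± 0.10 from IL4, adjusted p = 3.73e-06; spike-in -0.05, not called), and IL4 and control overlapped.

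Cdc6, the other loader, was dim. It stood at -3.92, -4.63, -3.91 and -4.39 with emodin, against -5.39, -5.44, -5.81 and -5.12 with IL4 and -4.31, -3.73, -3.93 and -3.68 in control. It was well above background on 1 of 4 emodin arrays, 0 of 4 IL4 arrays and 4 of 4 control arrays. IL4 therefore has only a nominal upper bound, set by the dimmest probe well above background on each array. That probe lay at -4.27 to -3.80 on emodin arrays, -4.90 to -4.66 on IL4 arrays and -5.11 to -4.45 on control arrays. A probe can miss the background mark above that level: another gene, Dck, read -4.02, -3.58, -3.90 and -3.59 on emodin arrays, 1 of them well above background. Against the nominal bound Cdc6 was 1.84-fold lower in IL4 than in control (adjusted p = 0.000214 for the fitted difference, called under each scaling tried). It was also called higher in IL4 plus emodin than in IL4 (adjusted p = 0.000196, not called with spike-in scaling), but both groups lay near background and no fold is given.

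Of the helicase genes, Mcm2 rose and Mcm3, Mcm4 and Mcm5 fell with emodin, the rise of Mcm2 over IL4 turning to -0.53 with spike-in scaling. Mcm2 stood at 1.28, 1.45, 1.04 and 1.27 with emodin, against 0.74, 0.68, 0.59 and 0.81 with IL4 and 0.26, -0.03, 0.00 and 0.15 in control. The 3 groups did not overlap, with control lowest. IL4 exceeded control by 0.61 ± 0.10 (1.52-fold, adjusted p = 0.00116; spike-in 0.73, called), and IL4 plus emodin exceeded control by 1.16 ± 0.10 (2.24-fold; spike-in 0.20, not called). Mcm5 ran the other way: -0.33, -0.34, -0.02 and 0.05 with emodin, against 1.10, 1.43, 1.04 and 1.12 with IL4 and 0.76, 0.99, 1.08 and 0.77 in control. Its emodin arrays were below all others, by 1.33 ± 0.13 from IL4 (2.51-fold lower, adjusted p = 2.49e-06), and IL4 overlapped control. Smaller falls against IL4 were seen for Mcm3 (-0.57 ± 0.07) and Mcm4 (-0.37 ± 0.07). Mcm6 differed by -0.12 ± 0.06 (adjusted p = 0.115) though every emodin array was below every IL4 array. Mcm7 differed by 0.25 ± 0.09 (adjusted p = 0.0251; spike-in -0.84), a call lost without emodin replicate 3 (adjusted p = 0.0579) or IL4 replicate 1 (0.0705). The 6 subunits act as 1 ring in the cell, and their differences from IL4 spanned -1.33 to 0.55 here.

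**Figure D2:**
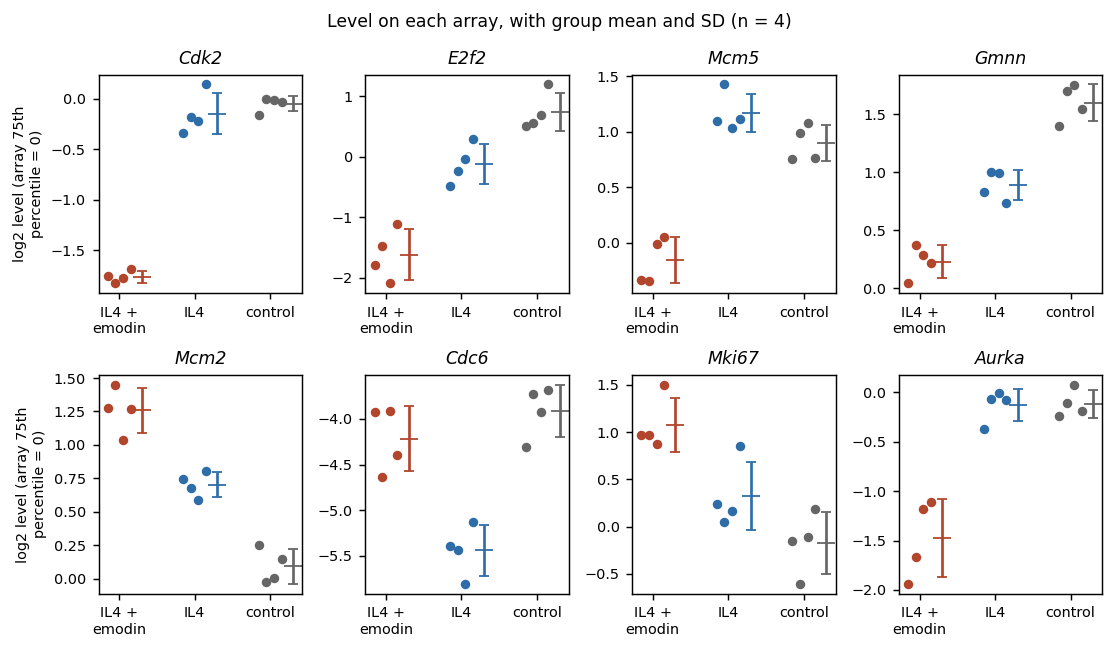
Each panel shows the log2 level of 1 gene on each array (points) with the group mean and SD (bars, n = 4), for IL4 plus emodin, IL4 and control. E2f2 and Gmnn are lowest with emodin and highest in control without overlap, Mcm2 is ordered the other way on this scale (its difference from IL4 turns to -0.53 with spike-in scaling), and Cdc6 is lowest on IL4 arrays, where it was not well above background.

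Among the enzymes of DNA synthesis, both subunits of ribonucleotide reductase were lower with emodin, and thymidylate synthase was higher on the 75th percentile scale but not with spike-in scaling. Rrm1, the large subunit, averaged 1.39 ± 0.21 in IL4 plus emodin, 2.07 ± 0.08 in IL4 and 2.17 ± 0.09 in control (SD, n = 4 each), a difference from IL4 of -0.68 ± 0.10 (adjusted p = 0.000112) with no overlap. Rrm2, the small subunit, differed by -0.55 ± 0.19 (adjusted p = 0.0198) with overlapping arrays. That call was lost without emodin replicate 1 (adjusted p = 0.0539), emodin replicate 2 (0.0508), IL4 replicate 3 (0.0541) or IL4 replicate 4 (0.0604). Tyms, which makes thymidylate, was -1.43, -0.98, -1.30 and -1.07 with emodin, against -1.79, -1.98, -1.99 and -2.01 with IL4 and -1.65, -1.91, -1.91 and -1.59 in control. The emodin arrays were above all others, by 0.75 ± 0.12 from IL4 (spike-in -0.34). Pcna, the sliding clamp of the polymerases, averaged 6.27 ± 0.18 in IL4 plus emodin (n = 4), 6.44 ± 0.17 in IL4 (n = 3, 1 spot left out by its outlier mark) and 6.91 ± 0.20 in control (n = 4, SD). It was lower than control in IL4 plus emodin (-0.65 ± 0.13, adjusted p = 0.00115) and in IL4 (-0.47 ± 0.14, adjusted p = 0.0381; spike-in -0.35, adjusted p = 0.122). The IL4 call was also lost without IL4 replicate 1, 2 or 4 (adjusted p = 0.0671, 0.0580 and 0.147) or control replicate 2 or 3 (0.0973 and 0.0939).

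Among the 4 genes for S phase and mitotic cyclins and CDK1, Ccnb1 was the 1 called in any of the 3 comparisons without the replicate block. Ccna2 and Ccnb2, cyclins A2 and B2, were called in no comparison of that fit, with differences from IL4 of -0.24 ± 0.36 and 0.32 ± 0.31. Their arrays overlapped widely between groups. With the block in the emodin comparisons, where numbers do not pair the arrays by the rule used, limma called both. Ccna2 was lower (adjusted p = 0.0486 against IL4 and 0.0389 against control). Ccnb2 was higher (adjusted p = 0.0135 and 0.0192, spike-in -0.77 and -0.66). Ccnb1, cyclin B1, was called lower than in IL4 through its brightest probe (-0.48 ± 0.15, adjusted p = 0.0159), but its other probes gave 0.53 and 0.47, neither called, and their mean reversed the sign (0.17). Cdk1, the mitotic kinase, differed from IL4 by 0.33 ± 0.33 (adjusted p = 0.400). One array set that spread: IL4 replicate 2 read -0.31, against -2.28, -1.72 and -1.84 on the other IL4 arrays, and without it the difference was 0.74 (adjusted p = 0.00340).

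Of 7 tested mitotic genes, Aurka was lower and Mki67 and Top2a higher with emodin than with IL4 on the 75th percentile scale, where spike-in scaling left Mki67 at -0.33 and Top2a at 0.05. Aurka, a kinase of the spindle poles, stood at -1.94, -1.67, -1.19 and -1.11 with emodin, against -0.37, -0.07, -0.01 and -0.08 with IL4 and -0.24, -0.11, 0.08 and -0.19 in control. All emodin arrays were below all others, by 1.34 ± 0.17 from IL4 (2.54-fold lower, adjusted p = 2.56e-05). Mki67, the gene of the proliferation marker Ki-67, was 0.97, 0.97, 0.87 and 1.50 with emodin, against 0.24, 0.05, 0.16 and 0.85 with IL4 and -0.15, -0.60, -0.11 and 0.19 in control. The emodin arrays were the highest, though emodin replicate 3 exceeded IL4 replicate 4 by little, and its 2 probes gave differences from IL4 of 0.75 and 0.77 (adjusted p = 0.00735 for the first). Top2a, the topoisomerase that untangles chromosomes, was -1.72, -1.42, -1.59 and -1.10 with emodin, against -2.91, -2.61, -2.67 and -2.17 with IL4 and -2.87, -2.61, -2.31 and -2.13 in control. Its difference from IL4 was 1.13 ± 0.20 (2.19-fold higher, adjusted p = 0.000298; spike-in 0.05, not called).

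The remaining mitotic genes were not called in any of the 3 comparisons without the replicate block, which in IL4 against control added the call of Bub1 given above. With the block in the emodin comparisons, where numbers do not pair the arrays by the rule used, limma called Cdc20 and Plk1 lower. Their adjusted p were 0.00144 and 0.00419 against IL4 and 0.00736 and 0.0231 against control. Bub1 was then called lower than in control (adjusted p = 0.00125) and Birc5 higher than in IL4 (adjusted p = 0.00350, spike-in -0.75). Cdc20, the activator of the anaphase-promoting complex, differed from IL4 by -0.68 ± 0.31 (adjusted p = 0.0714), and Plk1, a mitotic kinase, by -0.50 ± 0.22 (adjusted p = 0.0673). Both differences passed the threshold without IL4 replicate 1 (adjusted p = 0.0311 and 0.0230). Bub1, a spindle checkpoint kinase, was well above background on 0 of 4 emodin, 2 of 4 IL4 and 4 of 4 control arrays. Its fitted difference of IL4 plus emodin from control was -0.595 ± 0.277 (adjusted p = 0.0798, not called). The arrays overlapped, and the nominal bound was 1.02-fold. Birc5, survivin, differed from IL4 by 0.33 ± 0.28. In the fit without the block, 8 of 33 tested members were called in no comparison: these 4, Ccna2, Ccnb2, Cdk1 and Mcm6. The share of all genes called in no comparison was not counted.

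**Figure D3:**
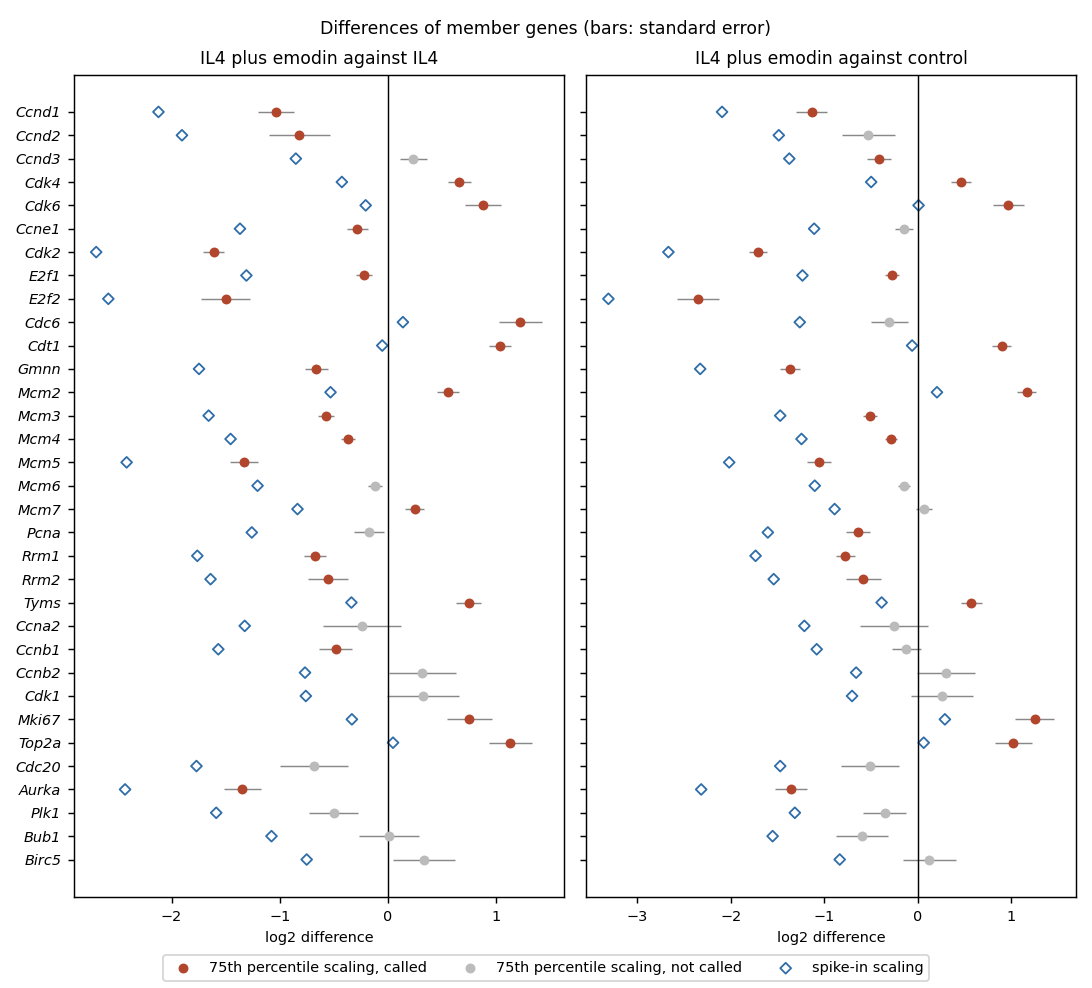
Points give the log2 difference of each tested member for IL4 plus emodin against IL4 (left) and against control (right), with standard errors as bars, filled red where called; open diamonds give the same difference with spike-in scaling. Diamonds lie to the left of the points by 1.09 and 0.96 for every gene, so falls stay below 0 by construction; of the called rises, Top2a against IL4 and Cdk6, Mcm2, Mki67 and Top2a against control stay above 0 without being called, and Cdc6 against IL4 is drawn from a level not above background.

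Other genes of the same pathway were taken from 6 lists, 117 genes of which 106 were tested. With emodin against IL4, 25 were higher (23.6%, beside 39.4% of all genes) and 43 lower (40.6%, beside 26.5%), and against control 21 were higher (19.8%, beside 37.3%) and 48 lower (45.3%, beside 25.6%). With spike-in scaling the counts were 3 higher and 94 lower against IL4 (beside 3.46% and 80.7% of all genes) and 3 higher and 93 lower against control (beside 4.12% and 75.6%). IL4 against control gave 8 higher (7.55%, beside 8.98%) and 11 lower (10.4%, beside 8.56%), and 9 and 5 with spike-in scaling (beside 8.73% and 3.1%). Counts by list below are on the 75th percentile scale. Of the pocket protein and inhibitor list, 4 of 10 were higher and 3 lower with emodin against IL4. Cdkn1a, which encodes the CDK inhibitor p21, was higher by 1.60 ± 0.11 against IL4 (spike-in 0.52, adjusted p = 0.00395) and by 2.39 ± 0.11 against control (spike-in 1.43), and was also higher in IL4 than in control (0.79 ± 0.11). Rbl1, the pocket protein p107, was lower than in IL4 (-1.67 ± 0.10).

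Of the E2F and MuvB list, 5 of 14 were higher and 5 lower with emodin against IL4. E2f8, a repressor of the E2F family, was lower than in IL4 (-2.00 ± 0.11) and higher in IL4 than in control (0.97 ± 0.11). E2f3, an activator, was lower than in IL4 (-1.24 ± 0.09), and Lin9, a MuvB subunit, was higher (1.34 ± 0.09; spike-in 0.26, adjusted p = 0.0459). The list for CDK activation and checkpoints had 4 of 16 higher and 8 lower; it included Ccnh, the cyclin of the CDK-activating kinase, at -2.43 ± 0.12, the phosphatase Cdc14a (-2.37 ± 0.23), and the damage kinases Chek2 (-1.13 ± 0.10) and Atm (-1.11 ± 0.13). Wee1, which restrains CDK1, was higher in IL4 than in control (0.61 ± 0.08), and Cdc25b, which activates it, was lower (-0.94 ± 0.09).

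Of the replication fork list, 5 of 34 were higher and 14 lower with emodin against IL4. The clamp loader genes split, Rfc5 at -1.14 ± 0.09 and Rfc2 at 1.04 ± 0.08 (spike-in -0.05, not called). Lig1, the ligase of Okazaki fragments, was lower in IL4 than in control (-1.14 ± 0.16). Of 7 nucleotide supply genes, 2 were higher and 3 lower. Dck, the deoxycytidine kinase of nucleoside salvage, was lower than in IL4 by a fitted 3.66 ± 0.15. Its emodin level lay near background, with 1 of 4 emodin arrays well above it. Samhd1, which degrades dNTPs, was lower than in IL4 by 2.02 ± 0.12. Dck and Samhd1 were both higher in IL4 than in control (1.09 ± 0.15 and 0.68 ± 0.12), as was Dut, the dUTPase (2.39 ± 0.22). Of 25 tested mitosis and cytokinesis genes, 5 were higher and 10 lower, among them Espl1, separase (-1.73 ± 0.23), and 2 kinetochore genes, Nuf2 and Spc25. Nuf2 was well above background on 0 of 4 emodin arrays and was called lower than in IL4, with a nominal bound of 2.28-fold. Spc25 was higher than in IL4 (1.62 ± 0.12, spike-in 0.54, adjusted p = 0.000708).

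Within groups, a set of members separated the arrays labelled male from those labelled female, a pattern noticed after the values were seen. Most were mitotic genes or S phase and mitotic cyclins. In each of the 3 groups both arrays labelled male lay above both labelled female for Ccna2, Ccnb1, Ccnb2, Cdc20, Plk1, Bub1, Birc5 and Rrm2, 8 of 33 members (24.2%, beside 1.66% of all genes), and below for 0 of 33 (beside 1.08%). These values are of the brightest probe of each gene, and the dimmer probes of Ccnb1 and Birc5 did not all split this way. With emodin, a dimmer Ccnb1 probe read -3.59 and -3.49 on arrays labelled male and -3.32 and -3.36 on arrays labelled female. For Ccnb2 the arrays labelled male read 0.50 and 0.59 with emodin, 0.06 and 0.07 with IL4 and 0.01 and 0.12 in control, and the arrays labelled female read -0.56 and -0.40 with emodin, -0.77 and -0.51 with IL4 and -0.84 and -0.36 in control. Mean differences, male minus female as labelled, were 0.87 ± 0.15 for Ccna2, 0.80 ± 0.10 for Ccnb2, 0.76 ± 0.13 for Cdc20 and 0.70 ± 0.11 for Birc5. By role, 4 of 7 tested mitotic genes and 3 of 4 genes for S phase and mitotic cyclins and CDK1 split this way. Rrm2 was the 1 of 4 DNA synthesis genes that did. Aurka, Mki67 and Top2a split this way in 1 of the 3 groups, and Cdk1 in 0 (-0.03 ± 0.28). In limma with the label beside group, 0 members and 0 genes in all were called (12 members, all higher on arrays labelled male, and 1931 genes at an unadjusted p below 0.05). The lowest adjusted p of a member was 0.0547 (Ccnb2), and 0.494 with the replicate number as a random block.

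Beside that pattern, 4 of 6 mesothelial and fibroblast markers (Upk3b, Wt1, Krt19 and Pdgfra) also had both arrays labelled male above both labelled female in all 3 groups, and the list's summed level was 5.80 to 14.0 on arrays labelled male and 3.06 to 6.56 on arrays labelled female. No marker of the macrophage, T and NK cell, mast cell, neutrophil or erythroid lists did so, nor did Cd79b or Ms4a1. The position of an array on its slide also follows the replicate number, so label, number and position cannot be told apart, and the part of the marker genes was not tested. Of the 106 other pathway genes tested, 5 showed the same split (4.72%, beside 1.66% of all genes): Mybl2, Nuf2, Ube2c, Ect2 and Nusap1. The count of members was 7 to 10 under the 5 other scalings, which were added after seeing the data.

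**Figure D4:**
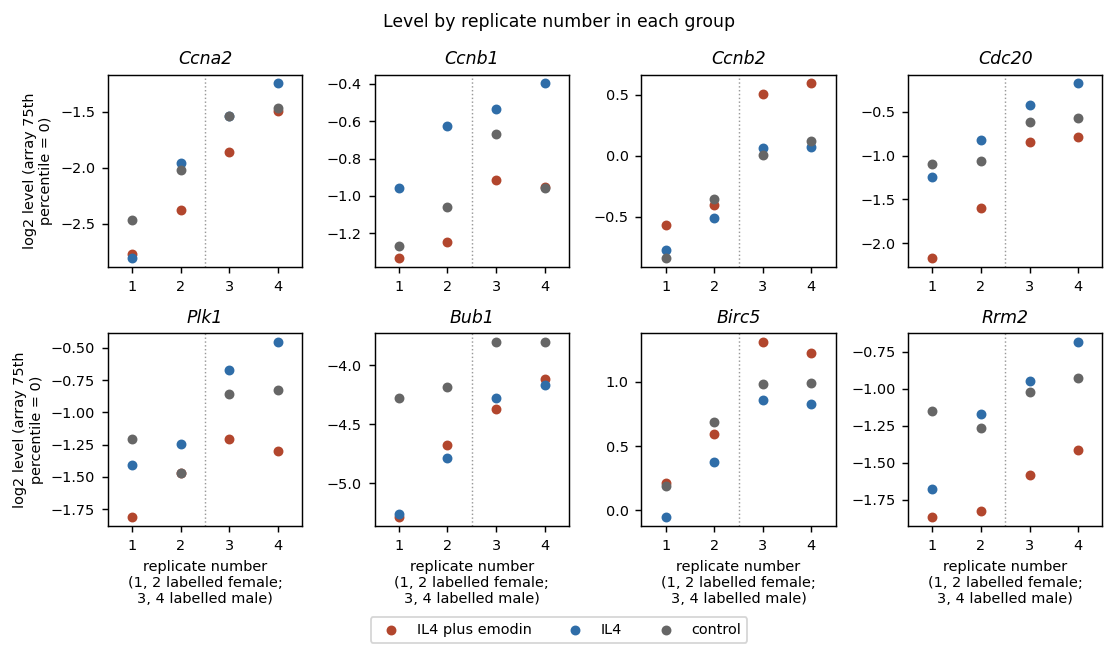
Each panel shows the log2 level of 1 gene by replicate number, coloured by group; the dotted line separates replicates labelled female (1 and 2) from those labelled male (3 and 4). In all 8 panels the 2 points of a group right of the line lie above its 2 points left of it.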

How the data were processed

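Total RNA of 12 samples was labelled with Cy3 and hybridised to 1-colour Agilent arrays, 1 array a sample. Spot intensities were deposited as processed by Agilent Feature Extraction 10.7.3.1, per the submitters' processing notes and the file headers, with background subtracted. Log2 values of the deposited table correlated at 1.00 with quantile-normalised, gene-centred scanner values on every array; the table was used as an alternative. The mean spot signal was absent from the files, so the normexp alternative used the median.

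Processed intensities were divided by the 75th percentile of each array and taken to log2. Outlier-marked spots and control spots were left out, probes were kept where every array of some group (4 of 4) had them well above background (27705 of 55681), and the brightest probe stood for each gene, leaving 20862 genes, of which 13197 had a symbol from RefSeq. Differences were tested with limma 3.58.1 in R 4.3.3 over all 12 arrays (3 group means, 9 residual degrees of freedom), two-sided, with Benjamini-Hochberg adjustment over all genes; the fit was tested on simulated data. Figures were drawn with matplotlib in Python. A bound takes, for a gene not above background in a group, the higher of its own signal and the dimmest probe above background on each array. Such a bound is nominal, since a probe can miss the background mark above that level. The number of arrays limits the precision.

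All 35 members are named; other pathway genes named are taken from the up to 4 per list and comparison with the largest called difference, not all of which are printed, and from the split by label. The members, lists and tests were chosen with earlier results of these data known. Replicate numbers were checked for pairing by correlating deviations from group means over genes: same-numbered IL4 and control arrays correlated at 0.311 to 0.524 in all 4 pairs, whereas emodin arrays passed 0.1 in 3 of 4 pairs with either other group. Alternatives covered background correction, 4 other scalings, the filter, the probe rule, an intensity trend, sex, replicate block, samples in the fit and leaving out each array. 1 marker gene is not reported here.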

Additional observations from a re-analysis of the deposited data

Results flagged for a closer look

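In 5 of 98 groups of 4 arrays checked, 1 array lay far from the other 3 by Dixon's ratio, about the 1 in 20 that chance gives. The arrays were IL4 plus emodin replicate 4 for Ccnd3 (3.08) and for Mki67 (1.50), IL4 plus emodin replicate 3 for Ccne1 (0.84), IL4 replicate 4 for Mcm6 (4.34) and IL4 replicate 1 for Tyms (-1.79), as log2 levels relative to the 75th percentile. The difference of the treatment effect between arrays labelled male and female was called by limma for 0 of 33 members in each comparison, with 1, 1 and 0 members at an unadjusted p below 0.05 for IL4 plus emodin against IL4, IL4 plus emodin against control and IL4 against control.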

How the results depend on the processing

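Counts of called members were within 1.5 times the reported ones except as follows. With spike-in scaling, IL4 plus emodin against IL4 gave 0 higher and 27 lower, IL4 plus emodin against control 0 higher and 27 lower, and IL4 against control 2 lower. For IL4 against control, 3 were higher with normexp, 2 with sex as a covariate and 3 with the replicate block. Of all 20862 genes, 2516, 1949 and 2645 were higher in the same fits. Leaving out each array in turn gave 8 to 10 higher and 10 to 16 lower (IL4 plus emodin against IL4), 7 to 7 and 13 to 15 (IL4 plus emodin against control) and 1 to 1 and 3 to 5 (IL4 against control), 3 without IL4 replicate 1 or 2. Spike-in scaling reversed these differences from IL4: Ccnd3 -0.85, Cdk4 -0.43, Cdk6 -0.21, Cdt1 -0.052, Mcm2 -0.53, Mcm7 -0.84, Tyms -0.34, Ccnb2 -0.77, Cdk1 -0.76, Mki67 -0.33, Bub1 -1.08 and Birc5 -0.75. It reversed these from control: Cdk4 -0.50, Cdt1 -0.062, Mcm7 -0.89, Tyms -0.39, Cdk1 -0.70, Birc5 -0.84 and Ccnb2 -0.66, the last called with neither scaling. The mean of its probes reversed Ccnb1 (0.17). The shift is the same for every gene, and its cause was not tested. Over all genes, higher and lower calls of IL4 plus emodin against IL4 were 8212 and 5538, with quantile scaling 6134 and 6451 and with spike-in scaling 722 and 16834. The replicate block was also fitted in the emodin comparisons, where numbers do not pair the arrays by the rule used. It called 12 members higher and 17 lower against IL4, beside 9004 and 6092 of all 20862 genes. Against control it called 8 members higher and 19 lower, beside 8618 and 5897 of all genes. Each emodin array correlated best with its own number against IL4. Slide as a block was not run, as each emodin comparison has its groups on different slides and IL4 and control share one. Dim signals limit Cdc6, Bub1, Ccnd2, Dck and Nuf2, and Ccne2 and Aurkb were not tested.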
